A study of Bos taurus with 6 samples.

Results

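miR-199 and miR-214 are microRNAs of dynamin genes, and in mouse and human they are best known from mesenchymal cells, where a transcript opposite to DNM3 carries a miR-199a hairpin and miR-214. All entries of the deposited count table named bta-miR-199a, bta-miR-199b, bta-miR-199c or bta-miR-214 were taken, whichever arm they name, and entries of the same mature miRNA were added. This gave 5 mature miRNAs from 7 of the 1055 entries, among 956 names in all after adding, of which 791 are mature miRNAs of miRBase and 165 are putative miRNAs. Small RNA was sequenced from 6 pools of bovine cumulus cells, the somatic cells that enclose an oocyte and form with it a cumulus–oocyte complex (COC). In 3 pools (Samples D, E and F) the oocytes had become blastocysts, and in the other 3 (Samples A, B and C) they had not cleaved after exposure to sperm. Both groups were bovine COCs from slaughterhouse ovaries, matured in vitro with follicle stimulating hormone and serum, inseminated 1 by 1 with sperm of a fertile bull, and sorted by fate only afterwards. A pool mixes cumulus pieces of several COCs, and each piece is only part of a cumulus.

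A miRNA hairpin is cut into a duplex with a 5p and a 3p strand, and either strand can be loaded into Argonaute, where it lowers the stability and translation of target mRNAs. In human and mouse cells, miR-199a-3p acts on MET and MTOR, miR-199a-5p on HIF1A and DDR1, and miR-214 on EZH2, and both hairpins at the DNM3 locus are switched on by TWIST1. Both miR-199a-5p and miR-214 are raised in fibrotic tissue in these species. In the bovine RefSeq annotation (assembly ARS-UCD2.0), the hairpin genes MIR199A-1 and MIR214 lie within 10 kb of each other inside DNM3, and a long non-coding RNA gene, LOC132342463, overlaps both. MIR199A-2 lies inside DNM2 and MIR199B inside DNM1. MIR199C lies inside NUP88, a nuclear pore gene, and has no other miRNA hairpin within 10 kb. The miRNAs named miR-199b, miR-199c and miR-214 carry no arm in their names.

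Library totals ran from 2776256 to 8139237 counts, and values are given as CPM, counts scaled to the total of their own library. Of the 956 names, 316 passed edgeR's filter on low counts, all 5 members among them. Over these 316 names, Samples E and B were the least like the others (median Pearson's r of log2 TMM-scaled CPM with the other 5 libraries 0.927 and 0.959, against 0.971 to 0.978 for Samples D, F, A and C), TMM being the library scaling of edgeR. The blood cell list (7 mature miRNAs, none of which passed the filter) summed to 0.806 to 3.66 CPM in blastocyst samples and 0.763 to 5.04 CPM in not-cleaved samples, with miR-144 and miR-223 without a count in any library (a 0 leaves room for 0.369 to 1.08 CPM, depending on the library). The endothelial miR-126-3p and miR-126-5p summed to 0.983 to 3.10 CPM in blastocyst samples and 1.53 to 4.32 CPM in not-cleaved samples. miR-145, of smooth muscle and fibroblasts, had at most 4 counts in any library. The stroma list of 6 miRNAs summed to 6387 to 6709 CPM in blastocyst samples and 5202 to 7300 CPM in not-cleaved samples, most of it miR-22-3p and miR-140. miR-202, a miRNA of the gonads, had 5968 to 6685 CPM in blastocyst samples and 6449 to 8454 CPM in not-cleaved samples.

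bta-miR-199a-3p, the strand that acts on MET and MTOR in human cells, was the main product of the group. With entries of the same name added, it took 80.6% of the 4449 counts of all members. It had 141 CPM in Sample D, 119 in E and 108 in F, against 80.5 in Sample A, 152 in B and 130 in C. The lowest and the highest library were both not-cleaved ones, and the blastocyst samples lay between them. The means were 123 ± 16.9 CPM (SD, n = 3) in blastocyst samples and 121 ± 36.6 CPM (SD, n = 3) in not-cleaved samples, and a two-sided exact permutation test gave p = 1. At 122 CPM over all 6 libraries, miR-199a-3p ranked 113 of 583 detected names, beside miR-499 (122 CPM) above it and miR-151-5p (121 CPM) below it. The most abundant name, miR-21-5p, had 500898 CPM.

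bta-miR-199a-5p, the other strand of the same hairpins, was far rarer. It had 14.7 CPM in Sample D (120 counts), 7.89 in E (28 counts) and 5.64 in F (21 counts), against 1.91 in Sample A (15 counts), 12.2 in B (34 counts) and 7.25 in C (31 counts). Samples D and B were high and Sample A was low, so each group held high and low libraries. The range from lowest to highest was 7.73-fold, the widest of the 5 members. The means were 9.42 ± 4.74 CPM (SD, n = 3) in blastocyst samples and 7.13 ± 5.17 CPM (SD, n = 3) in not-cleaved samples (two-sided exact permutation test, p = 0.6).

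bta-miR-214, which acts on EZH2 in human and mouse cells, was also highest in Samples D and B. It had 14.6 CPM in Sample D (119 counts), 6.20 in E (22 counts) and 3.49 in F (13 counts), against 4.45 in Sample A (35 counts), 11.9 in B (33 counts) and 7.01 in C (30 counts). The blastocyst samples held both the highest and the lowest value. The Wilson 95% intervals of Sample D (12.2 to 17.5 CPM) and Sample F (2.04 to 5.98 CPM) did not meet, so libraries of the same fate differed by more than counting error. The means were 8.10 ± 5.80 CPM (SD, n = 3) in blastocyst samples and 7.78 ± 3.78 CPM (SD, n = 3) in not-cleaved samples (two-sided exact permutation test, p = 1). The paper reports that qRT-PCR of pooled cumulus samples did not detect miR-214.

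bta-miR-199b, from the hairpin in DNM1, had 9.71 CPM in Sample D, 7.32 in E and 4.30 in F, against 3.31 in Sample A, 14.0 in B and 8.65 in C. Its order over the libraries was the same as that of miR-199a-3p. The means were 7.11 ± 2.71 CPM (SD, n = 3) in blastocyst samples and 8.67 ± 5.37 CPM (SD, n = 3) in not-cleaved samples (two-sided exact permutation test, p = 0.7). miR-199c, from the hairpin in NUP88, was the rarest member, with 4.30, 5.91 and 2.15 CPM in Samples D, E and F, against 3.94, 7.20 and 5.61 CPM in Samples A, B and C. Its counts ran only from 8 to 35 a library. The means were 4.12 ± 1.89 CPM (SD, n = 3) in blastocyst samples and 5.59 ± 1.63 CPM (SD, n = 3) in not-cleaved samples (exact permutation, two-sided p = 0.5). For all 5 members, 3 libraries against 3 cannot give an exact p below 0.1.

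**Figure D1:**
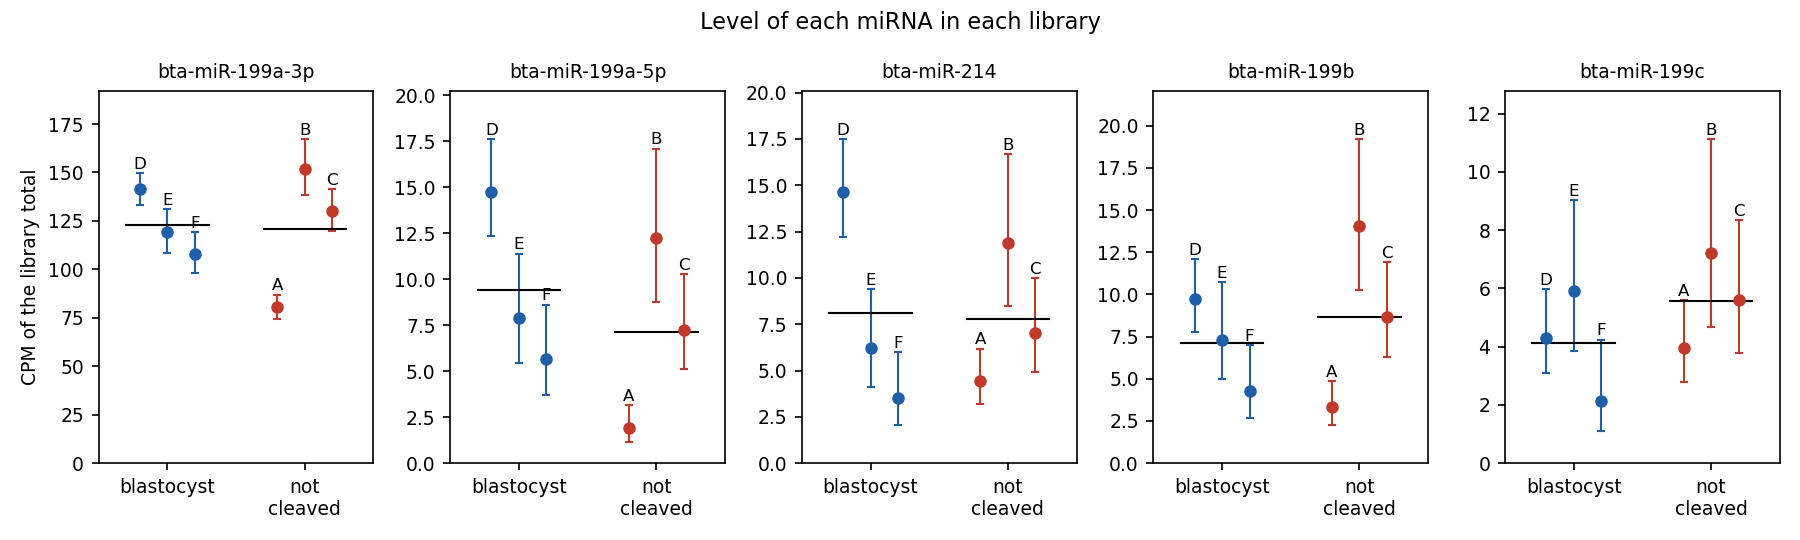
CPM of each of the 5 miRNAs (1 panel each, with its own axis from 0) in the 3 blastocyst samples (D, E, F, blue) and the 3 not-cleaved samples (A, B, C, red). Points are libraries, bars are Wilson 95% intervals of the count and black lines are group means; in every panel the groups overlap, as for miR-199a-3p, with 108 to 141 CPM in blastocyst samples and 80.5 to 152 CPM in not-cleaved samples.

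With the entries of a strand added, the order of the levels was miR-199a-3p, then miR-199a-5p, miR-214 and miR-199b close together, then miR-199c. Either entry of miR-199a-5p alone (124 and 125 counts over the 6 libraries) had fewer counts than miR-214 (252), miR-199b (223) or miR-199c (139). miR-199a-3p exceeded miR-199a-5p in 6 of 6 libraries, by 114 CPM on average (SD 21.4, n = 6). The 3 members in the middle did not differ beyond their spread. miR-199a-5p averaged 0.336 CPM above miR-214 (SD of the difference 1.64, higher in 5 of 6 libraries), and miR-214 averaged 0.0547 CPM above miR-199b (SD of the difference 2.63, higher in 2 of 6). miR-199b was above miR-199c in 5 of 6 libraries, by 3.04 CPM (SD of the difference 2.72). Next to them in mean CPM lay miR-2308 (8.42 CPM) and miR-139 (8.24 CPM) for miR-199a-5p, miR-181c (8.01 CPM) and miR-34a (7.94 CPM) for miR-214, and miR-2316 (4.86 CPM) and miR-3956 (4.85 CPM) for miR-199c.

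Between the fates, 0 of 5 members had an adjusted p under 0.05 when edgeR's quasi-likelihood model was run on the 316 names, where 0% of names did. The lowest adjusted p of any name in edgeR was 0.991. With an unadjusted p under 0.05, again 0 of 5 members were found, where 2.53% of all tested names (8 of 316) were. The libraries of the 2 fates overlapped for all 5, where they did not overlap for 8.86% of tested names (28 of 316, in CPM scaled by the TMM factors of edgeR). The log2 fold changes of blastocyst over not-cleaved samples were above 0 for 3 members and below 0 for 2, and above 0 for 148 of the 316 tested names. The median was 0.13 over the members and -0.02 over all tested names.

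The log2 fold change of blastocyst over not-cleaved samples was 0.13 for miR-199a-3p (SE 0.29), 0.59 for miR-199a-5p (SE 0.68) and 0.24 for miR-214 (SE 0.61). It was -0.11 for miR-199b (SE 0.57, but 0.10 under upper-quartile scaling, where all names had a median of 0.25) and -0.31 for miR-199c (SE 0.48), and the adjusted p of edgeR was 0.991 to 0.998 for the 5. Every standard error was larger than the estimate it belongs to. Leaving out single libraries turned the sign of 4 of them. Without Sample D the log2 fold change of miR-214 was -0.54 and without Sample A it was -0.04, while without Sample F it was 0.61. Without Sample D that of miR-199a-5p was 0.09, and without Sample B it was 1.07. That of miR-199a-3p was -0.08 without Sample A and 0.02 without Sample D, that of miR-199b was 0.27 without Sample B, 0.16 without Sample F and 0.03 without Sample C, and that of miR-199c was 0.00363 without Sample F. With Samples B and E, the libraries least like the others, left out together, the log2 fold changes of miR-199a-5p and miR-214 were 1.20 and 0.71, with an adjusted p of 0.992 in edgeR for both. A p that misses the threshold does not show that the fates were alike.

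**Figure D2:**
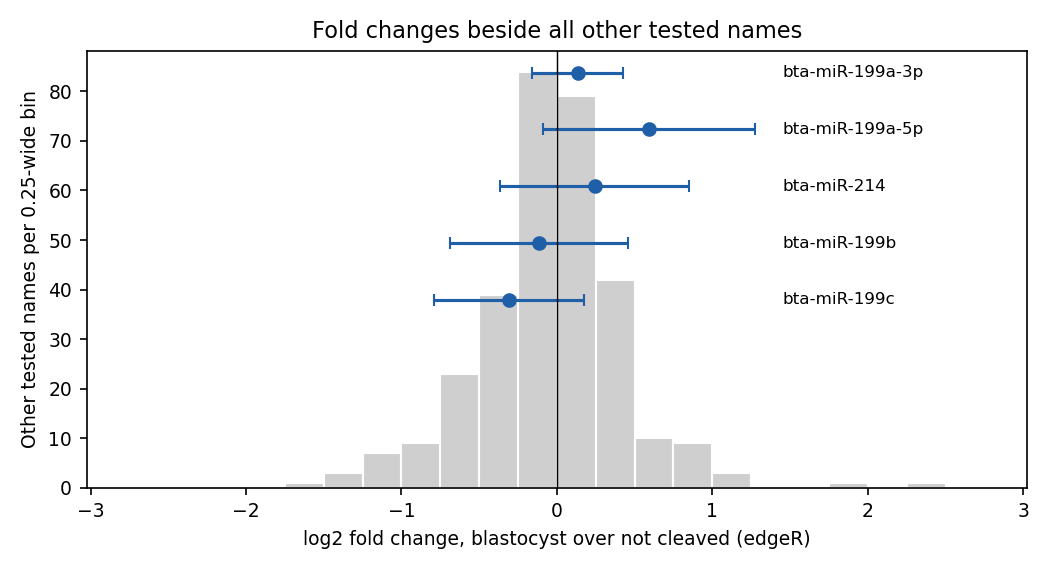
Log2 fold change of blastocyst over not-cleaved samples from edgeR for the 5 miRNAs (points, with bars of 1 standard error, at arbitrary heights) over a histogram of the other 311 tested names, in bins 0.25 wide. All 5 bars cross 0, and the points run from -0.31 to 0.59.

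miR-199, with all 4 members added, took 170, 140 and 120 CPM in Samples D, E and F, against 89.6, 186 and 151 CPM in Samples A, B and C. With miR-214 included the sums were 185, 146 and 124 CPM in Samples D, E and F, against 94.1, 197 and 159 CPM in Samples A, B and C. The means of this sum were 152 ± 30.8 CPM (SD, n = 3) in blastocyst samples and 150 ± 52.2 CPM (SD, n = 3) in not-cleaved samples, with a difference of 1.59 CPM (two-sided exact permutation test, p = 1). Without Sample A, the lowest, the difference was -26.4 CPM, and without Sample D it was -15.0 CPM. With miR-21-5p out of the total the difference was 73.0 CPM (two-sided exact permutation test, p = 0.6). In pooled cells, fewer cells of a type and less RNA per cell cannot be told apart as sources of a low sum.

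The members shared their high and low libraries. In CPM, Samples A and F were the 2 lowest libraries for all 5 members, and Sample B was among the 2 highest for all 5 and Sample D for 4. With TMM-scaled CPM, Samples A and F were again the 2 lowest for all 5, while Samples B and D were each among the 2 highest for 4. Each of these pairs holds 1 library of either fate. The largest totals were those of Sample D (8139237 counts) and Sample A (7865111 counts), and the part of depth in this order was not tested. Coefficients of variation over the 6 libraries were 21% for miR-199a-3p, 55.7% for miR-199a-5p, 55.2% for miR-214, 49.4% for miR-199b and 36.5% for miR-199c. Counting alone, taken at the mean count of each, would give 4.09%, 15.5%, 15.4%, 16.4% and 20.8% in the same order. The median coefficient over all 316 tested names was 29.1%. From the most variable of these, miR-199a-5p ranked 44, miR-214 46, miR-199b 66, miR-199c 112 and miR-199a-3p 234. The ranking is over names of all levels. miR-214 and miR-199b are also among the 50 names of the deposited log2 values, and those values differ from the log2 CPM computed here by at most 9.77e-15.

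**Figure D3:**
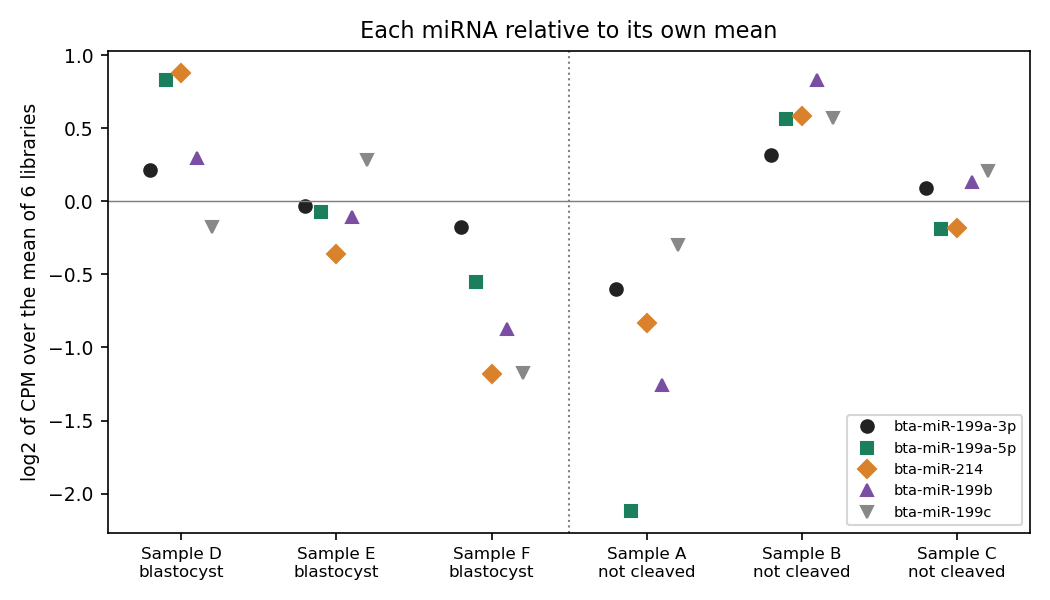
Log2 of the CPM of each miRNA over its own mean of the 6 libraries (vertical axis) in each library (horizontal axis, blastocyst samples D, E and F left, not-cleaved samples A, B and C right); each marker is 1 miRNA in 1 library, shifted sideways for legibility. Samples F and A lie below 0 for all 5 miRNAs and Sample B lies above 0 for all 5.

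The levels of the members were correlated over the libraries, most closely within miR-199a and with miR-199b. Over the 10 pairs of members, Pearson's r of log2(CPM + 1) ran from 0.414 to 0.965 with a median of 0.806, where the median over all 49770 pairs of tested names was 0.0890. Some names outside the group followed a member as closely, such as miR-500 with miR-214 (r = 0.981 in log2 TMM-scaled CPM, picked as the highest of all tested names). The highest r of a member pair was between the arms of miR-199a (r = 0.965, exact permutation p = 0.0111, adjusted over the 10 pairs p = 0.0556; Spearman's rho = 0.886, exact permutation p = 0.0333, adjusted p = 0.0556; n = 6 libraries). miR-199a-3p and miR-199b gave r = 0.954 and rho = 1, each with an exact permutation p of 0.00278, the smallest that 6 libraries allow, and an adjusted p of 0.0278. This was the only pair of the 10 past an adjusted p of 0.05, for r as for rho, while 6 of 10 had an unadjusted exact p under 0.05. With TMM-scaled CPM this pair gave r = 0.891 (exact permutation p = 0.0222, adjusted p = 0.0556), and 0 of 10 pairs passed. Leaving out any 1 library it gave r of 0.948 to 0.985, each time with an exact permutation p of 0.0167, the smallest that 5 libraries allow. Its adjusted p was 0.0833 to 0.167, and again 0 of 10 pairs passed. With 5 libraries a pair can pass only if several pairs share that smallest p, so not passing there does not show that the pair depends on 1 library. miR-199a-3p and miR-199b share no annotated hairpin, but in human and mouse the 3p strand of the miR-199b hairpin has the sequence of miR-199a-3p, so counts of miR-199a-3p can hold both.

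miR-214 with the strands of miR-199a gave r = 0.817 for miR-199a-5p (exact permutation p = 0.0389, adjusted p = 0.0741) and r = 0.796 for miR-199a-3p (exact permutation p = 0.0444, adjusted p = 0.0741), with rho = 0.886 for both (exact permutation p = 0.0333, adjusted p = 0.0556; n = 6). Counts of miR-199a add the entries of both precursors, MIR199A-1 near MIR214 and MIR199A-2 in DNM2, so these values are not of the DNM3 locus alone. With miR-199b, miR-214 gave r = 0.864 (exact permutation p = 0.0278, adjusted p = 0.0694), although the miR-199b hairpin lies in another dynamin gene. The pairs of miR-199c, the member outside the dynamin genes and the one of fewest counts, had the lowest values for each partner, from r = 0.414 with miR-199a-5p to r = 0.742 with miR-199b, and no exact p under 0.0972 for r. Without the 2 libraries farthest from the median of the first member, r was 0.874 for the arms of miR-199a, 0.952 for miR-199a-3p with miR-199b, 0.964 for miR-199a-3p with miR-214 and 0.962 for miR-199a-5p with miR-214 (n = 4, with Samples A and B left out for miR-199a-3p and Samples A and D for miR-199a-5p). Between miR-199b and miR-214 it was 0.686 without Samples A and F, and between miR-199c and miR-214 it was -0.0898 without Samples B and F. Pairs of miR-199c with the other members gave 0.833 for miR-199a-5p (without Samples A and D) and 0.572 for miR-199a-3p (without Samples A and B). With miR-199b the value was 0.459 (without Samples A and F). For miR-199c with miR-214, r was 0.619 over the 6 libraries, 0.904 without Sample D alone (exact permutation p = 0.0333, adjusted p = 0.0833) and 0.267 without Sample F alone. All values share the library totals. Within a fate there are only 3 libraries, too few for a value.

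The ratio of miR-199a-3p to miR-199a-5p counts differed between libraries. Since the miR-199a-3p counts may include reads of the miR-199b hairpin, a different ratio need not be a different use of the arms. miR-199a-5p took 9.45% of the counts of both miR-199a arms in Sample D, 6.21% in E (4.33% to 8.83%) and 4.96% in F (3.27% to 7.47%), against 2.31% in Sample A, 7.46% in B (5.38% to 10.2%) and 5.28% in C (3.75% to 7.40%, all Wilson 95% intervals). Expressed as a ratio, there were 9.58, 15.1 and 19.1 counts of miR-199a-3p for each count of miR-199a-5p in Samples D, E and F, against 42.2, 12.4 and 17.9 in Samples A, B and C. Samples D and A thus lay at the ends, with Wilson 95% intervals of the 5p share of 7.96% to 11.2% in Sample D and 1.41% to 3.78% in Sample A. With only the more abundant entry of each arm, the intervals of Sample D (7.48% to 11.9%) and Sample A (0.862% to 4.03%) were still apart. The intervals of Samples E, F, B and C overlapped each other. The mean log2 ratio of 3p over 5p was 3.79 ± 0.49 (SD, n = 3) in blastocyst samples and 4.37 ± 0.89 (SD, n = 3) in not-cleaved samples, a difference of -0.58 (two-sided exact permutation test, p = 0.5). The difference was -0.09 without Sample A, -0.31 without Sample D and -0.96 without Sample B, and it was -1.01 without Samples B and E. On counts thinned to the smallest total it was -1.07, from 1 random draw, and the spread over draws was not tested.

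The share of miR-214 in the counts of miR-214 and miR-199 together was 7.92% in Sample D, 4.23% in E (2.81% to 6.32%) and 2.83% in F, against 4.73% in Sample A (3.42% to 6.51%), 6.02% in B (4.32% to 8.34%) and 4.42% in C (3.12% to 6.25%). Sample D was highest and Sample F lowest, both of them blastocyst samples. The Wilson 95% intervals of Sample D (6.66% to 9.39%) and Sample F (1.66% to 4.77%) did not meet. The mean log2 ratio of miR-214 over summed miR-199 was -4.35 ± 0.77 (SD, n = 3) in blastocyst samples and -4.22 ± 0.25 (SD, n = 3) in not-cleaved samples, a difference of -0.13 (two-sided exact permutation test, p = 0.8), which was 0.22 without Sample F and 0.01 without Sample B. Set against miR-199a-5p alone, miR-214 had 0.992, 0.786 and 0.619 counts for each count of miR-199a-5p in Samples D, E and F, against 2.33, 0.971 and 0.968 in Samples A, B and C. With the 2 entries of miR-199a-5p added, Sample A was thus the 1 library with more miR-214 than miR-199a-5p. Against either entry alone, miR-214 had more counts in every library, as with 119 against 56 and 64 in Sample D and 13 against 10 and 11 in Sample F.

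**Figure D4:**
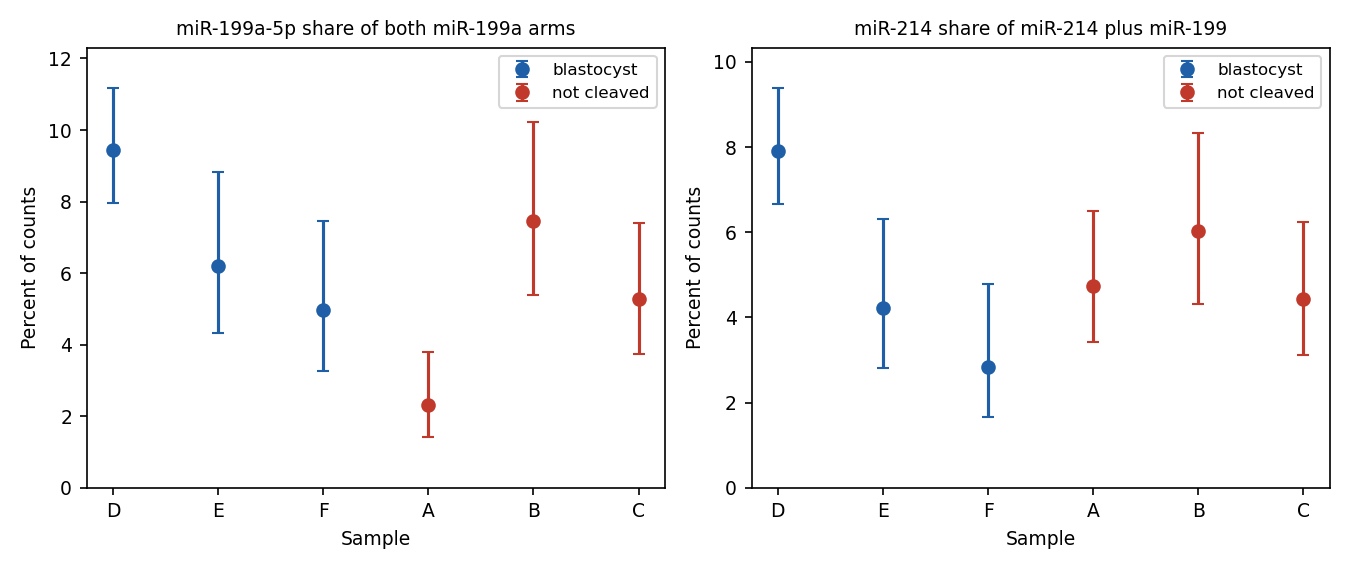
Left, the share of miR-199a-5p in the counts of both miR-199a arms, and right, the share of miR-214 in the counts of miR-214 and miR-199 together (percent), in blastocyst samples D, E and F (blue) and not-cleaved samples A, B and C (red), with Wilson 95% intervals. The 5p share runs from 2.31% in Sample A to 9.45% in Sample D, and the miR-214 share from 2.83% in Sample F to 7.92% in Sample D.

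miR-199a-3p and miR-199a-5p each have 2 entries in the table, for the 2 precursors. The entries of miR-199a-3p had 1863 and 1723 counts over the 6 libraries and those of miR-199a-5p had 124 and 125. In a library, the entries of miR-199a-3p differed by 0.360% to 8.27% of their sum and those of miR-199a-5p by 4.76% to 20%, and no pair was identical. Both entries of a strand carry the same miRBase name, so which hairpin a read came from is uncertain. Whether a read was counted at both was not tested, and if so, intervals on summed counts are too narrow. The levels of both miR-199a strands would then be too high, as would their share of the members' counts. Their place beside miR-214, miR-199b and miR-199c would change too. Tested as deposited, the 2 entries of miR-199a-5p had log2 fold changes of 0.75 (SE 0.78) and 0.50 (SE 0.68), and those of miR-199a-3p 0.18 (SE 0.32) and 0.07 (SE 0.31), with an adjusted p of 0.993 to 0.996 in edgeR.

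Other miRNAs with a profile like that of the members were found by Pearson's r of log2 TMM-scaled CPM over the 6 libraries, as a description. miR-365-3p was the most like miR-199a-3p (r = 0.971), miR-199a-5p (r = 0.983) and the sum of the members (r = 0.964). It had 71.5, 48.4 and 45.7 CPM in Samples D, E and F, against 25.05, 63.0 and 49.8 CPM in Samples A, B and C, so it too was lowest in Sample A. miR-20a of the miR-17-92 cluster (r = 0.955) and its paralog miR-106a (r = 0.916) came next for miR-199a-3p, and miR-452 (r = 0.934) and miR-106a (r = 0.925) for miR-199a-5p. miR-199b was most like miR-23a (r = 0.975) and miR-23b-3p (r = 0.970), which share a seed. miR-214 was most like miR-500 (r = 0.981), miR-2299-5p (r = 0.975) and miR-2285q (r = 0.943), and miR-199c was most like miR-149-5p (r = 0.971) and let-7i (r = 0.945). These were picked as the highest of all tested names, and no test was made.

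miRNAs with the same reported targets were counted from lists that had been drawn up with earlier results of these data known. Of the 7 listed miRNAs that act on EZH2, as miR-214 does, 1 had a log2 fold change above 0 and 6 below 0 (median -0.22), where 148 of the 316 tested names were above 0. The exception was miR-101, a repressor of EZH2, with 3306, 2651 and 3031 CPM in Samples D, E and F, against 2402, 2538 and 1859 CPM in Samples A, B and C (log2 fold change 0.52, SE 0.16, adjusted p = 0.991 in edgeR). The 6 below 0 include members of the let-7 and miR-26 families, so they are not separate observations. Among them, let-7a-5p, let-7b and let-7c were each lowest in Sample D. For let-7b this was 3850 CPM, against 7674 and 7732 CPM in Samples E and F and 6813 to 7761 CPM in not-cleaved samples. Of the 9 listed for MET or MTOR, 6 passed the filter, and 5 of these were above 0 (median 0.29), with miR-1, a miRNA of striated muscle, at a log2 fold change of 2.28 (SE 0.65, adjusted p = 0.991 in edgeR) and 42.6 CPM in Sample D against 9.95 and 10.7 in the other blastocyst samples and 4.45 to 4.91 in not-cleaved samples. Of the 8 of fibrosis, 5 were above 0 and 3 below (median 0.14). In these 3 lists 0 members passed an adjusted p of 0.05 in edgeR, and miR-101 and miR-1 had an unadjusted p of 0.0158 and 0.0100.

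In the stroma list 1 of 5 tested miRNAs was above 0 and 4 below (median -0.07), and 0 passed an adjusted p of 0.05 in edgeR, with miR-140 at an unadjusted p of 0.0446. miR-143, of smooth muscle and fibroblasts, had 14.0, 24.5 and 14.2 CPM in Samples D, E and F, against 14.0, 25.6 and 17.8 CPM in Samples A, B and C. miR-140, a miRNA of cartilage, had 3269, 2686 and 2627 CPM in Samples D, E and F, against 2324, 2814 and 1898 CPM in Samples A, B and C. miR-152 had 560, 425 and 412 CPM in Samples D, E and F, against 504, 620 and 470 CPM in Samples A, B and C. miR-22-3p had 2651, 3547 and 3300 CPM in Samples D, E and F, against 4414, 3804 and 2789 CPM in Samples A, B and C. miR-140 and miR-152 were thus highest in Samples D and B, as miR-214 was, and miR-143 in Samples E and B. In contrast, miR-22-3p and miR-22-5p were highest in Samples A and B. The epithelial list summed to 152 to 208 CPM in blastocyst samples and 212 to 245 CPM in not-cleaved samples. Most of it was miR-200b, whose TMM-scaled CPM overlapped between the fates (109 to 155 against 140 to 160). On that scale 8.86% of tested names (28 of 316) did not overlap. Of the 5 listed, the 2 tested were below 0 (median -0.31). Under the filter, miR-200c and miR-141 were highest in Sample E (8.45 and 4.79 CPM) and miR-429 in Sample A (2.29 CPM). The list of the granulosa and gonad, with 8 tested miRNAs, had 5 above 0 and 3 below (median 0.25), and summed to 484962 to 622404 CPM in blastocyst samples and 407221 to 494406 CPM in not-cleaved samples, nearly all of it miR-21-5p. The part of any of these in the values of the members was not tested.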

How the data were processed

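RNA was isolated from pooled cumulus pieces and small RNA libraries were made by adapter ligation and PCR, without molecular identifiers, so that intervals cover counting error only. The authors deposited whole-number counts per miRBase entry (Release 20), without normalization, and log2 values of CPM for the 50 names of highest variation. Aligner, read counter and build: not given in the sources used here. A deposited comparison with the authors' fold changes, p-values and group means was not used. Library letters and groups were taken from the column names, and no column was tied to a single sample label. The labels do not say whether pools are separate cultures. The p-values then cover only the spread among the 3 pools of a group, which may be technical.

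Entries of a mature miRNA were added, low names were dropped with filterByExpr (edgeR, given the groups), and the rest were put through TMM scaling and edgeR's quasi-likelihood test, with a Benjamini-Hochberg threshold of 0.05 over all 316 names. Standard errors were derived from each log2 fold change and its F statistic. Arm ratios used a pseudocount of 0.5, correlations one of 1 CPM and log2 TMM-scaled CPM a prior count of 2. Single values were compared by two-sided exact permutation tests, and intervals are Wilson 95%. R 4.3.3, edgeR 4.0.16, limma 3.58.1, DESeq2 1.42.0, Python 3.11.15, scipy 1.17.1 and matplotlib 3.10.9 were used, and the test was tried on simulated counts. Alternatives were DESeq2, other scalings, filters and tests, single entries, thinning to the smallest total (1 random draw) and each library left out in turn. Leaving out Samples B and E together was added after seeing the data. miRNAs named were the members, the 3 most like each, their neighbours in level, up to 4 of highest level per list and those of a list at an unadjusted p under 0.05. miR-126-5p, miR-145, miR-144, miR-223, miR-143, miR-429 and the miRNAs of overlapping hairpins were named after their values were seen. The members and the lists were chosen with earlier results of these data known. Names of hairpin genes and their neighbours are from RefSeq (assembly ARS-UCD2.0), and no coordinates of it are given. One list of miRNAs is not reported here.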

Additional observations from a re-analysis of the deposited data

How the results depend on the processing

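No name passed an adjusted p of 0.05 in any of the 16 alternatives, DESeq2 and edgeR's exact test among them (each with 4 names under 0.05 before adjustment, where the quasi-likelihood test had 8), and the members' adjusted p ran from 0.886 to 1. Upper-quartile factors moved the median log2 fold change of all names to 0.25 and that of miR-199b to 0.0981, which is -0.15 relative to that median. miR-199b was 0.0103 on thinned counts and 0.268 without Samples B and E, and its level difference, blastocyst minus not-cleaved, was 0.791 CPM with miR-21-5p out of the total and 1.03 CPM without Samples B and E. The log2 ratio of miR-214 to miR-199 differed by 0.0689 without Samples B and E. Leaving out 1 library at a time, the log2 fold change ran from -0.0785 to 0.32 for miR-199a-3p, from 0.0883 to 1.07 for miR-199a-5p, from -0.51 to 0.267 for miR-199b, from -0.60 to 0.00363 for miR-199c and from -0.538 to 0.61 for miR-214. The level difference ran from -18.2 to 17.6 CPM for miR-199a-3p, from -0.369 to 4.85 CPM for miR-199a-5p, from -4.24 to 1.13 CPM for miR-199b, from -2.94 to 2.62 CPM for miR-214 and from -26.4 to 25.3 CPM for the sum, and the difference in the log2 ratio of miR-214 to miR-199 from -0.538 to 0.2203. That of miR-199a-3p to miR-199a-5p ran from -0.956 to -0.0869. The 1 pair of members past an adjusted p of 0.05 by correlation, miR-199a-3p with miR-199b, did not pass with TMM-scaled CPM. Leaving out any 1 library it did not pass either, but its exact permutation p was then always 0.0167, the smallest that 5 libraries allow. The cause of the other changes was not tested. A filter at a mean of 50 counts left only miR-199a-3p of the members. No paired analysis was made, because neither the paper nor the labels give pairs of blastocyst and not-cleaved pools. The members other than miR-199a-3p rest on 8 to 120 counts a library.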

Other observations

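Hairpins annotated over or near those of the members gave few reads, and were looked at after the values of the members were seen. miR-3120, whose hairpin overlaps that of miR-214, had 4, 1 and 4 counts in Samples D, E and F, against 0, 3 and 3 counts in Samples A, B and C. miR-3154, whose hairpin lies within 10 kb of that of miR-199b, had 0 counts in Samples D, E and F, against 5, 2 and 0 counts in Samples A, B and C. miR-3604, with hairpins over those in DNM1 and DNM2, had 0 counts in every library. None of these passed the filter on low counts, and no test was made.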
